A study of Mus musculus with 200 samples.

Results

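At 72 autosomal genes of embryonic day 11.5 F1 mouse embryos, most reads distinguishing the alleles carried that of C57BL/6J (B6), the reference inbred strain. A minority carried that of CAST/EiJ (Cast), a strain derived from *Mus musculus castaneus*. These genes were chosen by their B6 allele fraction (BAF), the B6 allele votes divided by all allele votes, where a read that covers a SNP between the strains votes for the allele it carries. A gene entered when it had at least 200 votes in each reciprocal F1 cross and a BAF of 0.80 or more in both crosses, and 16 families of gene symbols, such as those of ribosomal proteins and collagens, were left out by name. Of 22033 genes in the tables, 21044 were autosomal and 7209 had enough votes in both crosses. At that threshold 85 genes qualified (1.18 percent of the eligible genes, by the rule), of which 13 were left out by symbol. The same rule turned around, with a BAF of 0.20 or less in both crosses, gave a mirror set of 58 genes.

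RNA was sequenced by 3SEQ, which reads the 3′ ends of polyadenylated transcripts, from whole embryos freed of extra-embryonic tissue. The F1 embryos all carried 1 allele of each strain (8 from B6 mothers and Cast fathers, B6 × Cast, and 8 from Cast mothers and B6 fathers, Cast × B6, from 2 litters per cross). The 154 N2 embryos came from backcrosses of F1 animals to B6, and at any autosomal gene were either B6/B6 or B6/Cast. Of them 89 had B6 mothers and F1 fathers (B6 × F1, 17 litters) and 65 had F1 mothers and B6 fathers (F1 × B6, 12 litters), and the F1 parents were themselves offspring of B6 females and Cast males. The labels name no transgene and no treatment for any of them. Where F1 somite numbers, a measure of stage, were recorded, no B6 × Cast embryo had fewer than any Cast × B6 embryo. F1 cross and stage therefore cannot be told apart. The F1 embryos had 15703888 to 38234229 reads on genes and the N2 embryos 245220 to 5370322 (median 2297774), so that single N2 embryos gave coarser values. Defining markers of blood, nerve, muscle, cartilage, liver, heart, endothelium and lens were detected in both generations. The 7 trophoblast markers present in the tables were each under 1 RPM at the median (reads scaled to a library of 1000000), and of 4 decidual markers *Prl8a2* and *Il11ra2* were too. The other decidual markers, *Cryab* and *Htra3*, reached 1 RPM. The decidual markers summed to a median of 54.8 RPM in F1 and 46.2 RPM in N2 embryos. In whole embryos, fewer cells of a type and less RNA per cell cannot be told apart.

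In an F1 hybrid both alleles of a gene sit in the same nucleus and meet the same regulatory proteins, so a lasting difference in output between them lies in cis, in the sequence or the inherited state of the alleles themselves. Such allele-specific expression (ASE) is common between subspecies of mice and can act at the promoter, at enhancers, on splicing or on transcript stability. A count of allele votes also depends on how reads were assigned: a read taken from a near-identical copy elsewhere in the genome, or reads of either allele lost in mapping, can move the BAF with no change in transcription.

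Near-identical copies could be looked for in the sequence. The last 500 transcribed bases of each gene were aligned to the reference genome (NCBIM37, which is mm9), and 14 of the 70 genes found in the annotation (20%) had a second copy there, with at least 50% of the end aligned at 90% identity or more. Among all eligible genes found in the annotation the share was 6.71% (479 of 7135), and in the mirror set it was 8 of 53. With copies of 97% identity or more it was 7 of the 70 genes (10%), against 1.67% of the eligible genes. The ferritin light chain gene *Ftl1* had 7 copies (the closest at 99.4% identity), *Phgdh*, the enzyme that opens serine synthesis, 9 (98.0%), *Usmg5*, a small subunit of the mitochondrial ATP synthase, 4 (98.8%), and *S100a11*, a calcium-binding protein of the S100 family, 3 (98.6%). *Vcp*, the AAA ATPase that extracts ubiquitylated proteins from membranes and complexes, had 1 (98.4%, on the X chromosome), as did the ETS factor gene *Etv5* (98.2%) and the calcium channel subunit gene *Cacnb3* (97.9%).

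Windows of 30 coding bases of 3 of these genes are shown beside their closest copy because they show how few bases tell the loci apart. Each was chosen as the coding window with the most differences from the copy, so it is not typical of the aligned end. Over its 498 aligned bases *Phgdh* had 10 mismatches to the copy shown. Reads that mapped almost as well to a second place had been discarded before counting, so a read that lay within the *Ftl1* or *Usmg5* window alone would enter neither the votes nor the totals. All are written 5′ to 3′ on the strand of the gene, with positions counted from 1 at the 5′ end and with the bases that differ in capitals. The *Phgdh* window lies at chr3:98118230-98118259 on the minus strand and its copy at chr7:144003875-144003904 on the plus strand, with 4 differences (T12C, C24T, G25A and C30T, gene base first). The *Ftl1* window lies at chr7:52713561-52713590 on the minus strand and its copy at chr13:74544490-74544519 on the plus strand, with 1 difference (G30A). The *Usmg5* window lies at chr19:47160681-47160710 on the minus strand, its copy at chrX:20158411-20158440 on the minus strand, and the 2 windows are identical.
Phgdh: ctggcaggtgcTccctaccaagcCGtgggC
Phgdh copy: ctggcaggtgcCccctaccaagcTAtgggT
Ftl1: aaccatctgaccaacctccgcagggtggcG
Ftl1 copy: aaccatctgaccaacctccgcagggtggcA
Usmg5: atggctggtgcagaaagtgatggccaattc
Usmg5 copy: atggctggtgcagaaagtgatggccaattc

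Neither a second copy nor an exon shared with a gene of the same strand was found for 53 of the 70 genes (75.7%), against 89.3% of the eligible genes. By annotation, 69 of the 70 were protein coding. Same-strand overlaps were present at 4 genes, *2510006D16Rik* (with *Gm12965*), *Ftl1*, *Churc1* (with *Fntb*) and *Sap18*. An exon overlapping a gene of the opposite strand was found at 15 genes (21.4%, against 23.5% of the eligible genes).

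The genes lay on all 19 autosomes, with 10 on chromosome 11, 7 each on chromosomes 3 and 12, 6 on chromosome 16 and 5 each on chromosomes 2 and 15. As a share of the eligible genes the largest were chromosomes 16 (2.73%), 12 (2.68%) and 3 (2.30%). Neighbours were few: within 200 kb of each other lay *Sec23a* and *Sip1*, head to head on chromosome 12 with 1376 bases between them, and *Ina* and *Usmg5*, 58144 bases apart on chromosome 19. *Pmvk* on chromosome 3 lay 121090 bases from *Efna4*, a gene of the mirror set with the opposite allele bias.

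The F1 ratios that chose the genes are given as a description. The median BAF over the 72 genes was 0.886, with a range from 0.805 to 0.998. It was 0.95 or more at 14 genes, from 0.90 to under 0.95 at 19, from 0.85 to under 0.90 at 22 and under 0.85 at 17. Every F1 embryo with votes had a BAF above 0.5 at 68 genes and above 0.7 at 58. Among the other 4 was *Tcfap2c*, which encodes the transcription factor AP-2 gamma, with embryos from 0.333 to 0.981 in Cast × B6. The crosses, which also differed in stage, differed by 0.05 or more in pooled BAF at 7 genes. Among them was *Trim37*, an E3 ubiquitin ligase, with 0.969 in B6 × Cast and 0.861 in Cast × B6. Its medians over embryos were alike, 0.976 and 0.972, and its lowest Cast × B6 embryo was at 0.575. *Sln*, the sarcoplasmic calcium pump inhibitor sarcolipin, had pooled values of 0.85 and 0.928. Just inside the threshold were *Nid1* (0.813 in B6 × Cast and 0.80 in Cast × B6), *Dusp28* (0.883 and 0.801), *Tbcb* (0.801 and 0.812) and *Tmem8c* (0.836 and 0.802). Among those just outside it were *Art5* (0.802 and 0.797), *Cpz* (0.830 and 0.796) and *Mab21l3* (0.814 and 0.795).

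**Figure D1:**
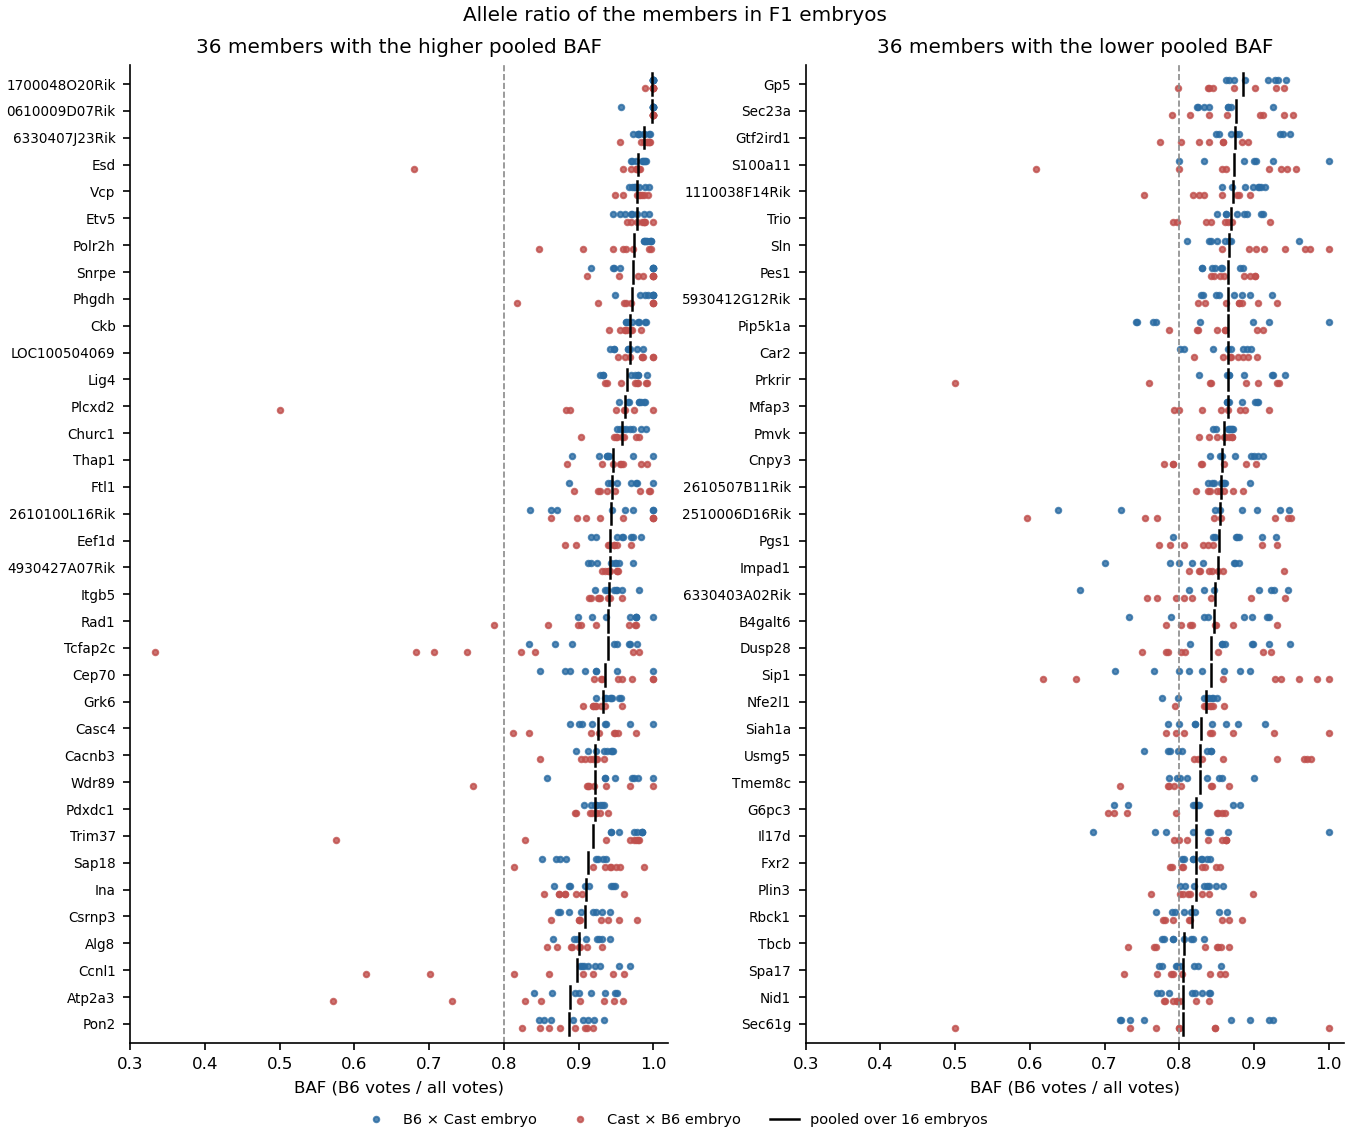
BAF (x axis) of the 72 genes in F1 embryos, with each gene a row in order of its pooled BAF, each point an embryo (blue B6 × Cast, red Cast × B6), a black bar for the BAF pooled over all 16 embryos and a dashed line at 0.80. The pooled bars lie above 0.80 by the rule, and single embryos of some genes spread to the left, down to 0.333 at *Tcfap2c*.

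The genes had many different roles. Of the 72, 51 could be given a role from their names: 13 metabolic enzymes, 8 factors of RNA processing, translation or ribosome assembly, 6 proteins of folding and secretory traffic, 6 transcription factors, 5 of signalling and cytoskeleton, 4 of muscle and calcium handling, 4 of matrix, adhesion and secretion, 3 ubiquitin ligases and 2 of DNA repair and checkpoints. On 10 lists of related genes, the 28 Sm and snRNP proteins had 1 of these genes (*Snrpe*) and 14 eligible, and the 44 DNA repair and replication stress genes had 1 (*Lig4*) and 33 eligible. The linear ubiquitin and NF-κB list (*Rbck1*, 14 eligible), the myogenic list (*Tmem8c*, 10 eligible), the dual-specificity phosphatases (*Dusp28*, 15 eligible) and the membrane traffic list (*Sec23a*, 32 eligible) had 1 each. The other 4 lists had none. The lists were written around families of genes with strong B6 bias, so a single gene on a list is partly built in. Over all genes tested on a list, these single genes included, the median N2 BAF lay near 0.5. The median N2 BAF over the 36 DNA repair genes tested was 0.521, over the 36 membrane traffic genes 0.487 and over the 17 Sm and snRNP genes 0.486.

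Whether the bias was met again in embryos that had no part in choosing the genes was asked in the heterozygous N2 embryos. All 72 genes could be tested, with B6 votes paired against Cast votes within each heterozygous embryo. A call required a p under 0.01 after Bonferroni adjustment over all genes and an N2 BAF above 0.55 or below 0.45. Votes were called toward B6 at 61 genes (84.7%), where 8.59 percent of the 9215 genes tested were called in that direction. The Cast allele was higher at 1 gene, *2510006D16Rik*, against a background of 7.84 percent. Of the mirror set, 48 of 55 genes tested were called Cast-higher and none B6-higher. The N2 BAF was 0.80 or more at 55 genes, from 0.60 to under 0.80 at 11 and under 0.60 at 6, with a median of 0.889. It lay within 0.10 of the F1 value at 59 genes. In the B6/B6 embryos, where no Cast allele was present, fewer than 1% of votes were for Cast at 71 of the 72 genes, so B6 reads rarely voted for Cast. The called count was 45 over the 53 genes with neither a copy nor a same-strand overlap, and 13 over the 14 genes with a second copy.

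**Figure D2:**
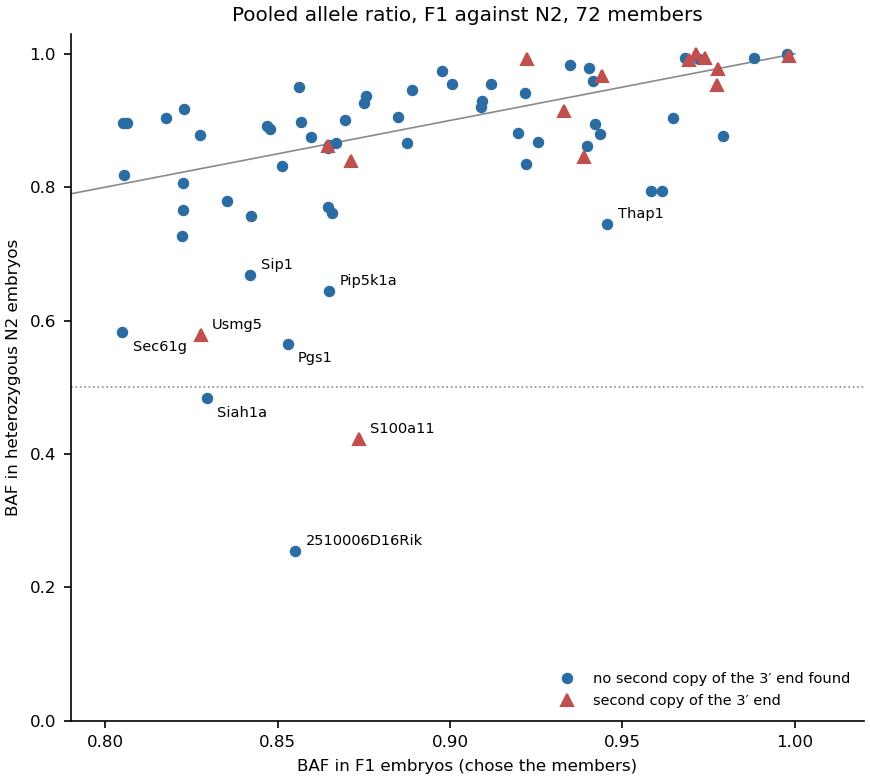
BAF pooled over heterozygous N2 embryos (y axis) against BAF pooled over F1 embryos (x axis), both as fractions, with each point a gene (red triangles for the 14 with a second copy of the 3′ end), a line of equal values and a dotted line at 0.5. Most of the 72 genes lie near the line of equal values, and 6 fall below 0.60 on the y axis, with *2510006D16Rik* lowest at 0.255.

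The single-embryo ratios held firmly at some deeply counted genes and not at others. Among the 12 genes with most F1 votes, the lowest heterozygous N2 embryo with 10 votes or more ran from 0.225 at *Usmg5* to 0.949 at *Ckb*. *Tbcb*, tubulin folding cofactor B, had the most F1 votes. Its BAF in the 65 heterozygous N2 embryos with 10 votes or more was 0.852 at the lowest, 0.907 at the median and 0.982 at the highest, after 0.777 to 0.832 (median 0.799) in B6 × Cast and 0.731 to 0.866 (median 0.842) in Cast × B6 embryos. *Pmvk*, phosphomevalonate kinase of the isoprenoid and cholesterol pathway, ranged from 0.790 to 0.936 (median 0.871) in 78 N2 embryos. *Ckb*, brain-type creatine kinase, ran from 0.949 to 1 (median 0.993) in 76 N2 embryos, and its closest copy had 95.6% identity. No heterozygous N2 embryo at these 3 genes lay below 0.790. Over the 62 genes with at least 5 heterozygous embryos of 10 votes or more, no such embryo lay below 0.5 at 47. *Nfe2l1*, a cap'n'collar transcription factor that raises proteasome genes, had 1 of 75 embryos below 0.5 and *Mfap3* 5 of 70.

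The 10 genes not called, other than *2510006D16Rik*, were not alike. *Plin3*, a lipid droplet coat protein (N2 BAF 0.727, adjusted p = 0.0119), *Casc4* (0.867, adjusted p = 0.0117) and *Plcxd2* (0.795, adjusted p = 0.0591) kept a ratio toward B6 and missed the threshold. *Churc1* (0.794), *Wdr89* (0.835) and *Sip1*, a component of the SMN complex that loads Sm proteins on snRNA (0.668), had adjusted p-values of 1, 0.305 and 1. The other four were close to equal votes in N2: *S100a11* (0.422), *Siah1a* (0.484), *Pgs1* (0.566) and *Sec61g* (0.583).

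*Siah1a*, an E3 ubiquitin ligase, had a BAF of 0.785 to 0.914 (median 0.832) in B6 × Cast embryos and 0.783 to 1 (median 0.842) in Cast × B6 embryos. In the 22 heterozygous N2 embryos with 10 votes it was 0.20 at the lowest, 0.453 at the median and 0.643 at the highest, with 16 of 22 below 0.5. *Pgs1*, the phosphatidylglycerophosphate synthase of cardiolipin synthesis, went from F1 medians of 0.877 and 0.836 to a median of 0.548 in 32 N2 embryos. *Sec61g*, the gamma subunit of the translocon of the endoplasmic reticulum, went from 0.811 and 0.80 to 0.524 in 13. At none of these 3 genes was a second copy found. F1 reads had been trimmed to a shorter length than N2 reads, so read length and generation cannot be told apart here.

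*Usmg5* stood between these and the rest. In F1 embryos its BAF was 0.752 to 0.842 in B6 × Cast, 0.819 to 0.858 in the Cast × B6 embryos of litter 1 and 0.930 to 0.976 in those of litter 2. Litter 1 was sequenced on Illumina GAIIx and HiSeq machines and litter 2 on HiSeq alone. Recorded somite numbers were also lower in litter 1, so litter, sequencing run and stage cannot be told apart here. In 52 heterozygous N2 embryos it ran from 0.225 to 0.867 with a median of 0.590, and it was still called B6-higher (N2 BAF 0.579, adjusted p = 5.05e-06). This is the gene whose window is identical to a copy on the X chromosome, and the part of those copies in its ratio was not tested.

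*2510006D16Rik* on chromosome 4 had votes toward B6 in F1 and toward Cast in N2 embryos. Its BAF was 0.638 to 0.947 (median 0.869) in B6 × Cast and 0.596 to 0.949 (median 0.852) in Cast × B6 embryos, but 0 to 0.699 (median 0.240) in 51 heterozygous N2 embryos, of which 47 lay below 0.5. It had only 0.85 votes per 100 reads in F1 embryos, so its ratio came from a very small part of its reads, and *Gm12965* shares an exon with it on the same strand. Thin coverage of this kind, under 5 votes per 100 reads, was met at 5 of the 72 genes (6.94%, against 9.29% of the eligible genes). Besides *2510006D16Rik* they included *0610009D07Rik* (1.54), *S100a11* (2.69), *Sec23a* (3.42) and *Snrpe* (4.30).

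Parent of origin was looked at in the N2 embryos, where the Cast allele came from the F1 father in B6 × F1 and from the F1 mother in F1 × B6. A permutation test of litter BAF between the crosses called 0 of 62 genes at an adjusted p under 0.05, with 0.533 percent of 5625 genes called. At an unadjusted p under 0.05 there were 7 of the 62 (11.3%), against 7.48% of all genes tested. The rule asked for 0.80 or more in both F1 crosses, which leaves out genes whose ratio strongly depends on parent of origin. A lack of calls is therefore partly built in, and nothing is read from these counts. The BAF was 0.80 or more in both N2 crosses at 54 of the 72 genes.

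The dose of the B6 allele was asked with total reads instead of votes. A B6/B6 embryo has 2 B6 alleles and a B6/Cast embryo has 1 with a Cast allele, so if nothing but the Cast allele is weaker, a gene with a BAF of f should show a log2 ratio of B6/B6 over B6/Cast of 1 + log2(f). A Cast read lost in mapping lowers votes and reads alike, so this comparison cannot tell such loss apart from lower transcription, and genotype at a gene is shared with its linked neighbours. Of the 72 genes, 65 reached a mean of 5 RPM in N2 embryos and were tested with edgeR, with sequencing lane in the fit. Total expression was higher in B6/B6 embryos at 53 (81.5%), against 12.1 percent of 9733 genes, and higher in B6/Cast embryos at 1, against 13.3 percent. The log2 ratio was above 0 at 60 of 65, and its median was 0.61, against -0.01 over the eligible genes tested. Of the mirror set, 28 of 40 tested were higher in B6/Cast and none in B6/B6.

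The median log2 ratio was below the median of 0.82 that the F1 BAF would give. The 95% interval included the predicted value at 34 of the 65 genes (67.5 percent of the eligible genes tested), lay below it at 31 (background 16.6 percent) and above it at none. The F1 BAF that gives this value also chose the genes, so a shortfall is partly built in and nothing is read from these counts. With the N2 BAF, which the rule did not use, the interval included the value at 31 (68.6% of the eligible genes), lay below at 33 (16.2%) and above at 1 (15.2%). In the mirror set, with the N2 BAF, the interval included the value at 10 of 40 genes. It lay above the value, on the side of a smaller genotype difference, at 30. With the F1 BAF, which chose that set, the counts were 4 and 35. B6 votes alone, which should be near 1 on the log2 scale for 2 copies against 1, had a median log2 ratio of 0.96 over the 72 genes and 0.98 over the eligible genes.

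**Figure D3:**
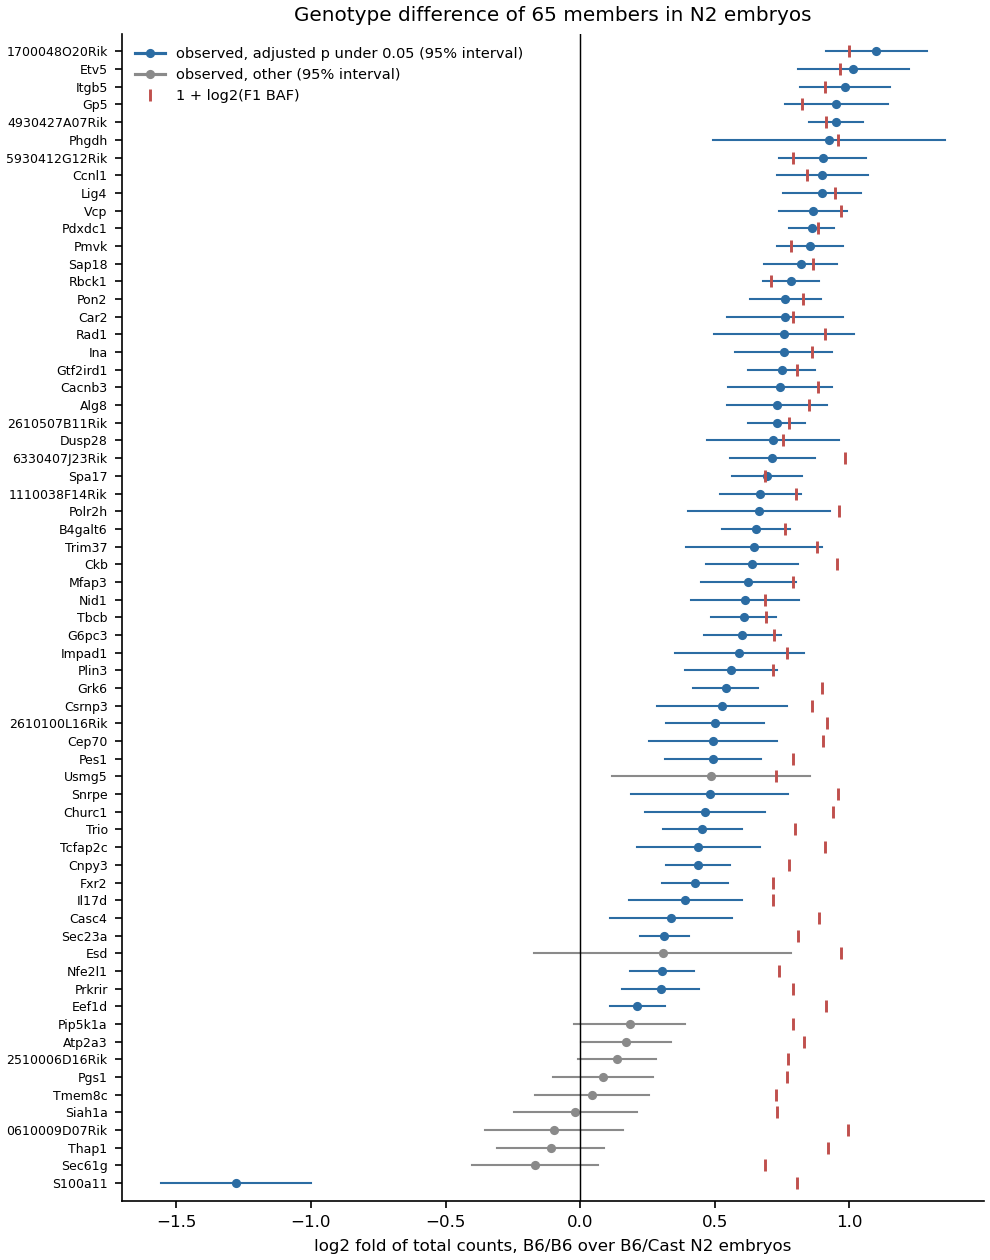
Observed log2 ratio of total expression, B6/B6 over B6/Cast (x axis), of the 65 genes tested, 1 row each, with points for the estimate (blue where adjusted p is under 0.05, grey otherwise), bars for the 95% interval and red ticks for the value 1 + log2(BAF) from F1 embryos. At 34 genes the bar holds the tick and at 31 it stays to its left, and *S100a11* lies lowest at -1.28.

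*Pdxdc1* on chromosome 16 (chr16:13833241-13903224, minus strand), a member of the pyridoxal phosphate-dependent decarboxylase family, had the smallest p of the dose test among the 65 genes. Its level was 42.6 RPM at the lowest, 171 at the median and 289 at the highest in 73 B6/B6 embryos, and 51.9, 93.2 and 146 in 81 B6/Cast embryos. The ranges overlapped, but the B6/B6 median lay above the highest B6/Cast embryo. The log2 ratio was 0.86 (SE 0.04, adjusted p = 8.41e-42), where its F1 BAF of 0.922 predicted 0.88. *Pmvk* (0.85, SE 0.06), *Car2*, carbonic anhydrase 2 (0.76, SE 0.11), and *Phgdh* (0.92, SE 0.22) were further enzymes that were called and had intervals including the prediction. Of the 13 enzymes 12 were called B6-higher in N2 votes and 10 in dose, with log2 ratios from 0.08 to 0.92. The calls over the chosen genes as a whole were 61 of 72 in votes and 53 of 65 in dose. Over all genes tested they were 8.59 and 12.1 percent.

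*Rbck1* on chromosome 2 (chr2:152142070-152158389, minus strand) encodes a subunit of the complex that builds linear ubiquitin chains. It had 8.80 RPM at the lowest, 121 at the median and 173 at the highest in 77 B6/B6 embryos, and 8.59, 67.9 and 93.9 in 77 B6/Cast embryos. Here too the B6/B6 median was above every B6/Cast embryo, although the lowest values of both groups were alike. The log2 ratio was 0.78 (SE 0.05, adjusted p = 7.05e-29) with 0.71 predicted. *Trim37* was at 0.65 (SE 0.13) and *Siah1a* at -0.02 (SE 0.12, adjusted p = 0.932). The ligase gene whose N2 votes were equal thus also had the log2 ratio nearest 0 of the 3.

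*Lig4* on chromosome 8 (chr8:9970020-9977686, minus strand) encodes the DNA ligase of non-homologous end joining. Its level was 6.96, 27.1 and 74.4 RPM (lowest, median, highest) in 73 B6/B6 embryos and 1.46, 13.3 and 52.8 in 81 B6/Cast embryos, and the log2 ratio was 0.90 (SE 0.07, adjusted p = 7.93e-22). *Rad1*, a subunit of the DNA damage checkpoint clamp, was at 0.76 (SE 0.13). Both intervals included the prediction. The 39 genes tested of the DNA repair list had a median of 0.03, with 11 called higher in B6/B6 and 3 in B6/Cast. Over all 9733 genes tested, 12.1 percent were called higher in B6/B6 and 13.3 percent in B6/Cast.

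Other genes with intervals that included the prediction from the F1 BAF were spread over the roles. Among matrix and adhesion genes *Itgb5*, the integrin beta 5 subunit, had a log2 ratio of 0.98 (SE 0.08), *Gp5*, a platelet membrane glycoprotein, 0.95 (SE 0.10) and *Nid1*, the basement membrane protein nidogen 1, 0.61 (SE 0.10). *Vcp* was at 0.86 (SE 0.06), *Tbcb* at 0.61 (SE 0.06), *Sap18*, a protein of histone deacetylase and splicing complexes, at 0.82 (SE 0.07) and *Etv5* at 1.01 (SE 0.10). *Ina*, the neuronal intermediate filament alpha-internexin, was at 0.76 (SE 0.09), and *Dusp28*, an atypical dual-specificity phosphatase, at 0.72 (SE 0.12). *4930427A07Rik* (0.95, SE 0.05), *2610507B11Rik* (0.73, SE 0.05) and *Mfap3* (0.63, SE 0.09) were of the same kind. The intervals of *Tbcb*, *Nid1* and *2610507B11Rik* lay below the values of 0.84, 0.84 and 0.93 that their N2 BAF gave. The call of *Dusp28* was lost without the lane term (0.36, adjusted p = 0.231) and in a rank-sum test on RPM (0.28, adjusted p = 0.648), and that of *Car2* without the lane term (0.45, adjusted p = 0.204). With a second copy 7 of 13 genes tested had such intervals and 11 were called, and with neither copy nor same-strand overlap 26 of 48 and 39. Over all 65 genes these counts were 34 and 53.

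Among RNA, translation and ribosome factors all 7 tested were called toward B6/B6. The share was 81.5% over the 65 genes (53 called) and 12.1 percent over all genes tested, so nothing particular to this role is read from it. The interval lay below the value predicted from the F1 BAF at 5, against 31 of the 65 genes as a whole. That BAF also chose the genes, so nothing is read from the 5. *Eef1d* on chromosome 15 (chr15:75725226-75739986, minus strand) encodes a subunit of the exchange factor that recharges elongation factor 1 with GTP. It had 190, 515 and 973 RPM (lowest, median, highest) in 82 B6/B6 embryos and 130, 400 and 772 in 71 B6/Cast embryos. The log2 ratio was 0.21 (SE 0.05, adjusted p = 0.000594), although its BAF of 0.942 in F1 and 0.895 in N2 embryos would have given 0.91 and 0.84. *Snrpe*, the Sm core protein E, was at 0.48 (SE 0.15, 0.96 predicted) and *Fxr2*, an RNA-binding relative of FMRP, at 0.43 (SE 0.06, 0.72 predicted). *Sec23a*, a coat protein of vesicles leaving the endoplasmic reticulum, was likewise at 0.31 (SE 0.05, 0.81 predicted), *Nfe2l1* at 0.30 (SE 0.06, 0.74 predicted) and *Ckb* at 0.64 (SE 0.09, 0.96 predicted).

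**Figure D4:**
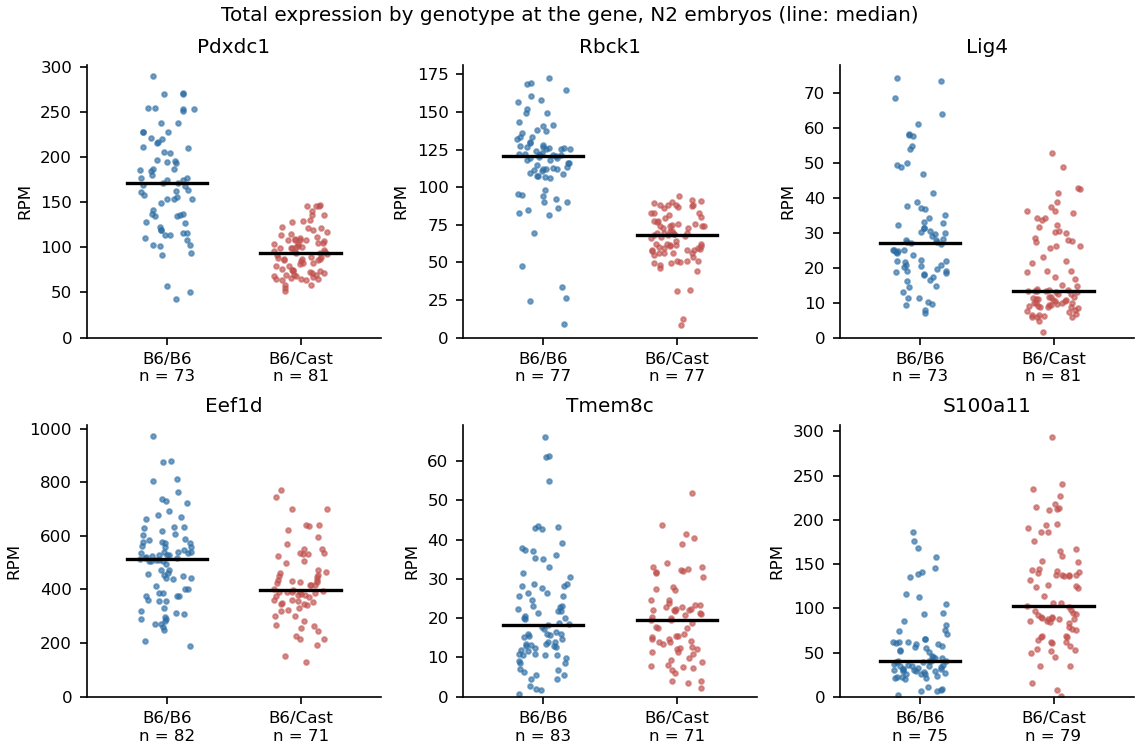
Total expression in RPM (y axis) of *Pdxdc1*, *Rbck1*, *Lig4*, *Eef1d*, *Tmem8c* and *S100a11* in N2 embryos that were B6/Cast or B6/B6 at that gene (x axis), with each point an embryo and a bar for the median. The B6/B6 median of *Pdxdc1* is 171 against 93.2 RPM, those of *Tmem8c* are 18.4 and 19.7 RPM, and that of *S100a11* is lower in B6/B6 at 40.2 against 102 RPM.

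The 11 genes tested but not called for dose fell into kinds by their N2 votes. At *Siah1a*, *Pgs1* (0.08, SE 0.09) and *Sec61g* (-0.17, SE 0.12) neither votes nor dose were called in N2. At *2510006D16Rik*, with votes toward Cast in N2, the ratio was 0.14 (SE 0.07, adjusted p = 0.171). At the other 7 the votes were called B6-higher: *Usmg5* (0.49, SE 0.19, adjusted p = 0.0509), *Esd*, S-formylglutathione hydrolase (0.31, SE 0.24), *Pip5k1a*, a phosphatidylinositol phosphate kinase (0.18, SE 0.10), *Atp2a3*, the calcium pump SERCA3 (0.17, SE 0.08), *Tmem8c* (0.04, SE 0.11), *0610009D07Rik* (-0.10, SE 0.13) and *Thap1*, a zinc finger protein of the THAP family (-0.11, SE 0.10). The interval of *Usmg5* was wide and included both 0.73, its predicted value, and values near 0.12.

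*Thap1* had a BAF of 0.891 to 1 in B6 × Cast and 0.884 to 0.992 in Cast × B6 embryos, and 0.534 to 1 (median 0.755) in 31 N2 embryos. Its level was 0, 5.56 and 48.5 RPM (lowest, median, highest) in 86 B6/B6 embryos and 0, 8.12 and 44.4 in 68 B6/Cast embryos, so the median was not lower in heterozygous embryos. Lane medians of *Thap1* ran from 2.41 to 33.3 RPM and those of *Esd* from 2.59 to 621, and lane was in the fit. *0610009D07Rik* had no Cast votes at all in 71 heterozygous N2 embryos with a vote (BAF 1), while its total was 13.3, 111 and 378 RPM in 70 B6/B6 and 10.4, 104 and 914 in 84 B6/Cast embryos. At 1.54 votes per 100 reads its ratio, too, came from few of its reads.

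*S100a11* (chr3:93324410-93330209, plus strand) was the single gene of the 65 called higher in heterozygotes. It had 1.95, 40.2 and 187 RPM (lowest, median, highest) in 75 B6/B6 embryos and 0.557, 102 and 293 in 79 B6/Cast embryos. The groups overlapped over most of their range, and the log2 ratio was -1.28 (SE 0.14, adjusted p = 8.17e-14), that is 2.42-fold higher in B6/Cast. The direction was the same in embryos of B6 mothers (-1.44, SE 0.21) and of F1 mothers (-1.03, SE 0.15), and over all settings tried the ratio ran from -1.50 to -1.0. Its F1 BAF was 0.80 to 1 in B6 × Cast and 0.609 to 0.956 in Cast × B6 embryos, from 499 votes in all, and its 3 copies share up to 98.6% of the sequence of its end. The part of these copies in the votes and in the reads was not tested.

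Whether the genotype difference depended on the mother was asked by fitting the N2 crosses apart with edgeR. The log2 ratios differed at 0 of 65 genes at an adjusted p under 0.05 (3 at an unadjusted p under 0.05), and at 7 of the 9733 genes. The smallest p of the 65 was that of *Car2*, 0.99 (SE 0.15) under B6 mothers and 0.42 (SE 0.15) under F1 mothers (unadjusted p = 0.00768, adjusted p = 0.58). The total level itself, compared between mothers over litter sums with edgeR, was called at 0 of 65 genes (background 0 percent), with 17 at an unadjusted p under 0.05 (26.2%, against 13.7% of all genes) and a smallest adjusted p of 0.246. Tests that took single embryos in place of litters called 22 of the 65 (edgeR, background 25.8 percent) and 21 (Mann-Whitney U test, background 31.6 percent). Of 14 lanes 13 held embryos of 1 kind of mother, so lane and mother cannot be told apart.

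Stage was read from somite number, known for 147 N2 embryos and running from 42 to 57. With lane in the fit, 3 of the 65 genes rose with somite number (5.78 percent of genes did) and none fell (4.32 percent did, edgeR). At an unadjusted p under 0.05 there were 7 (10.8%, against 22.1% of all genes), of which 2 had a negative slope (3.08%, against 11.1%). *Tmem8c* on chromosome 2 (chr2:26917156-26927699, minus strand) encodes myomaker, the membrane protein that lets myoblasts fuse. Its level was 2.11 at the lowest, 12.6 at the median and 33.2 RPM at the highest in 55 embryos of 42 to 47 somites. In 64 embryos of 48 to 51 somites it was 0.789, 21.3 and 61.3, and in 28 embryos of 52 to 57 somites 1.94, 26 and 66.1. The slope was 0.14 on the log2 scale per somite (SE 0.02, adjusted p = 8.48e-07), or 2.59-fold over 10 somites. On the myogenic list 4 of 11 genes tested rose, *Myod1*, *Myog*, *Mef2c* and *Tmem8c*, and none fell. The summed level of 3 muscle markers rose from a median of 186 RPM over 239 to 278 in the same ranges, and its part in the rise of *Tmem8c* was not tested.

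**Figure D5:**
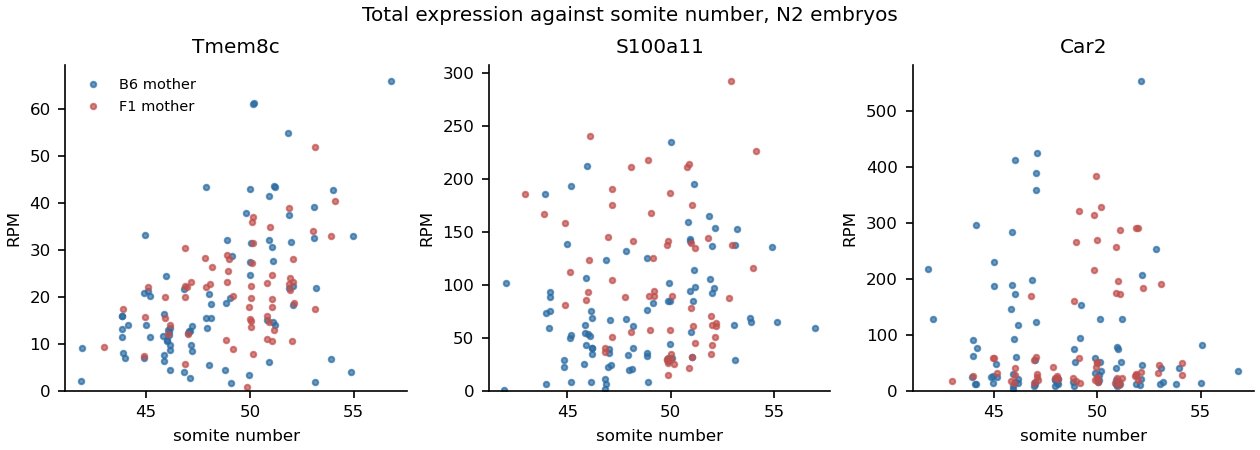
Total expression in RPM (y axis) of *Tmem8c*, *S100a11* and *Car2* against somite number (x axis, points spread sideways by up to 0.2) in 147 N2 embryos, each point an embryo, blue for B6 and red for F1 mothers. The *Tmem8c* median is 12.6 RPM from 42 to 47 somites and 26 RPM from 52 to 57, while *Car2* shows no rise in its medians.

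*S100a11* had medians of 62, 83.8 and 89.8 RPM in the 3 ranges and a slope of 0.13 (SE 0.04, adjusted p = 0.0218). *Car2* had medians of 48.0, 29.4 and 34.7 RPM, which do not rise, and a slope of 0.085 (SE 0.027, adjusted p = 0.0273) in the fit with lane. Its lane medians ran from 14.1 to 266 RPM. At *Tmem8c* the votes stayed toward B6 (N2 BAF 0.878, 0.60 to 1 over 53 embryos with none below 0.5), while its total was not called for genotype in the fit with lane (0.04). The ratio was 0.22 with somite number added to lane and 0.21 with litter in place of lane, neither called, and 0.38 with lane and 15 principal components, which was called (adjusted p = 2.08e-09).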

How the data were processed

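The authors sequenced 3SEQ libraries, mapped the reads with Bowtie2 to mm9 and to a Cast genome built from known variants, dropped reads with a close second match and trimmed F1 reads to a common shorter length. The deposited tables hold whole read counts per gene, made by the authors from uniquely placed reads, and, as estimated counts, the B6 and Cast votes, in which a read covering several SNPs was shared between them. The deposited genotype table gives each gene of each N2 embryo a score of 1 for B6/B6, 0.5 for B6/Cast and 0 for no call, as the authors inferred it. Column names tied every column used to a sample. Of 168 N2 columns, 8 had labels naming no mother and 6 had no genotypes, and these were not used. Each F1 embryo was sequenced in 2 runs, counted together as 1 sample.

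The members and lists were chosen with earlier results of these data known. Read counts per genotype were fitted with edgeR 4.0.16 (quasi-likelihood, TMM scaling, R 4.3.3), with each gene's own genotype and the sequencing lane, over genes with a mean of 5 RPM or more. Somite slopes used the same fit with lane, and mothers were compared on litter sums. P-values were adjusted by Benjamini-Hochberg over all genes tested. N2 votes per library were compared by a paired t-test over heterozygous embryos, for genes with at least 20 votes in each N2 cross and 10 heterozygous embryos, with Bonferroni adjustment over all genes tested. Rounding of the votes was needed only for the quasi-binomial alternative. The test of litter BAF between mothers drew 100000 permutations, whose smallest possible p is 1e-05, and was chosen after seeing the data. Embryos are the replicates, and embryos of a litter share parents. Scripts were tested on simulated data.

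The last 500 transcribed bases were aligned with minimap2 2.31-r1302 to the NCBIM37 genome. Genes named in the text were those among the 12 with most F1 votes, the 8 smallest p-values and 8 largest shortfalls of the dose test, calls toward Cast, the 4 on each side of the threshold (of which 1 is not reported here), members of a list, neighbours within 200 kb, and somite or mother calls. Further genes were named after their values were seen, as examples of a role. Alternatives covered normalization (DESeq2 1.42.0 size factors and Wald test), filters, covariates, flowcells, mothers, depth and left-out F1 litters.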

Additional observations from a re-analysis of the deposited data

Results flagged for a closer look

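In 62 groups of F1 embryos (the genes named by rule, in each cross) the highest or lowest embryo was set against the others, and 7 groups had an embryo standing apart. Chance flags about 1 in 20 groups. At 4 genes in Cast × B6 the lowest embryo stood apart: *Esd* at 0.68 from 25 votes (the others 0.960 to 0.982), *S100a11* at 0.609 from 46 votes (the others 0.80 to 0.956), *Sap18* at 0.814 from 247 votes (the others 0.919 to 0.988) and *Nfe2l1* at 0.794 (the others 0.832 to 0.860). In B6 × Cast the embryo standing apart was the lowest at *0610009D07Rik*, 0.957 from 46 votes with all others at 1, and the highest at *2610507B11Rik*, 0.895 (the others 0.838 to 0.861), and at *Sec23a*, 0.926 from 121 votes (the others 0.824 to 0.869). All 7 values stayed above 0.5.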

How the results depend on the processing

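No paired analysis was possible because the replicate numbers count embryos within a group and tie none to an embryo of another group. Votes were instead paired within embryos, and with litter in place of lane 53 genes were called for dose toward B6/B6, as with lane. A BAF threshold of 0.90 left 29 genes, and leaving out an F1 litter gave 54 to 58. Somite calls numbered 9 without lane, 1 in embryos of F1 mothers alone and 10 by Spearman correlation, against 3. Mother calls numbered 22 with edgeR and 21 with the Mann-Whitney U test on single embryos, against 0 on litter sums. The cause was not tested. Calls toward B6 in N2 votes ran from 45 (litter means) to 68 (Benjamini-Hochberg), and dose calls toward B6/B6 from 35 (42 genes tested, at 20 RPM or more) to 61 (72 tested, no filter). At named genes 12 dose results lost their call and 13 gained one over all settings, and no called ratio changed direction. The uncalled ratios of *Esd*, *Sec61g*, *Siah1a*, *Thap1* and *Tmem8c* fell on either side of 0. *Snrpe* was not called in flowcell 1 alone (0.08, adjusted p = 0.812) and *Eef1d* not in flowcell 2 alone (0.17, adjusted p = 0.308), while *Tmem8c* was called with 15 principal components (0.38, adjusted p = 2.08e-09). *Thap1* was called toward B6/Cast in flowcell 1 (-0.42, adjusted p = 0.0182). N2 depth limits single-embryo ratios: 3 genes had no heterozygous embryo with 10 votes.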
